A study of Physcomitrium patens with 20 samples.

Results

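The transcriptomes of 2 double mutants of DNA methyltransferase genes were set against each other in the moss Physcomitrium patens. The tissue was protonema, the branching filaments that grow from a spore. The comparison used 6 of 20 mRNA libraries, chosen by their labelled genotype: 3 of cmt/dnmt3b and 3 of met/dnmt3b. Both mutants lack DNMT3b, so they differ in whether CMT or MET is lost beside it. The other 14 libraries were of the single mutants cmt (3), met (2) and dnmt3b (3), of drm12 (drm1drm2, 3) and of wild type (wt, 3). All were of cultivar Grandsen, grown for 7 days, per the labels, which do not say how many lines or cultures stand behind a genotype. The p-values therefore cover no more than library-to-library spread, and part of that may be technical. The 3 cmt/dnmt3b libraries were all labelled batch 2 and the 3 met/dnmt3b libraries all batch 1. Genotype and batch thus coincide in this comparison, and they can be gauged apart only through wt, drm12 and cmt, which had replicates 1 and 2 in batch 1 and replicate 3 in batch 2. The met libraries were all of batch 1 and the dnmt3b libraries all of batch 2.

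Plants methylate cytosine in 3 sequence contexts, CG, CHG and CHH, where H is any base but G, and methylation of transposable elements (TEs) goes with their silencing. In P. patens, upkeep of CG methylation needs MET and that of CHG methylation needs CMT, while CHH methylation in heterochromatin depends chiefly on DNMT3b. Loss of CMT and DNMT3b is thus a loss outside CG, and loss of MET and DNMT3b is a loss in CG and CHH. Methylation itself was not measured in these libraries. The deposited counts named genes and TEs only by identifier, and the annotation used here holds none of those identifiers, so the disrupted genes and the markers of protonema could not be looked up.

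The 6 libraries held between 14717022 and 20212650 counts, and the 20 libraries between 14236575 and 21811993. Reads were counted for 31967 genes and 241351 TEs. After a low-count filter, 20149 genes and 6602 TEs were tested with edgeR's quasi-likelihood test, with genotype and batch as terms, at a Benjamini-Hochberg adjusted p of 0.05 over all 26751 features. Levels are in CPM, read counts scaled to the normalised library size. They are not scaled to length, so a level is compared between libraries and not between genes.

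TEs held far more of the transcripts in cmt/dnmt3b than in met/dnmt3b. Their share of counts was 3.07%, 2.94% and 3.60% in the cmt/dnmt3b libraries, against 0.364%, 0.450% and 0.308% in the met/dnmt3b libraries. The groups did not overlap, and the lowest cmt/dnmt3b library lay above every other library of the series. The means were 3.20% ± 0.351 in cmt/dnmt3b and 0.374% ± 0.0715 in met/dnmt3b (SD, n = 3 each), a ratio of 8.57. The two-sided exact permutation test gave p = 0.1, the lower limit for groups of this size (adjusted p = 0.15 over 6 measures). In bulk tissue, more cells with active TEs and more TE transcripts per cell cannot be told apart.

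Batch moved the TE share in the same direction, by less. The batch 2 library had 1.74 times the mean of the batch 1 libraries in wt (0.109% against 0.0629%), 3.20 times in drm12 (0.270% against 0.0841%) and 1.84 times in cmt (0.587% against 0.319%). When each double mutant was set against libraries of its own batch, cmt/dnmt3b was 29.3 times wt and met/dnmt3b was 5.94 times wt. Against drm12 these ratios were 11.9 for cmt/dnmt3b and 4.45 for met/dnmt3b, and against cmt they were 5.46 for cmt/dnmt3b and 1.17 for met/dnmt3b. The ratio of these ratios was 4.93 by wt, 2.67 by drm12 and 4.66 by cmt, so the share was higher in cmt/dnmt3b by each gauge, with 1 batch 2 library behind each.

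**Figure D1:**
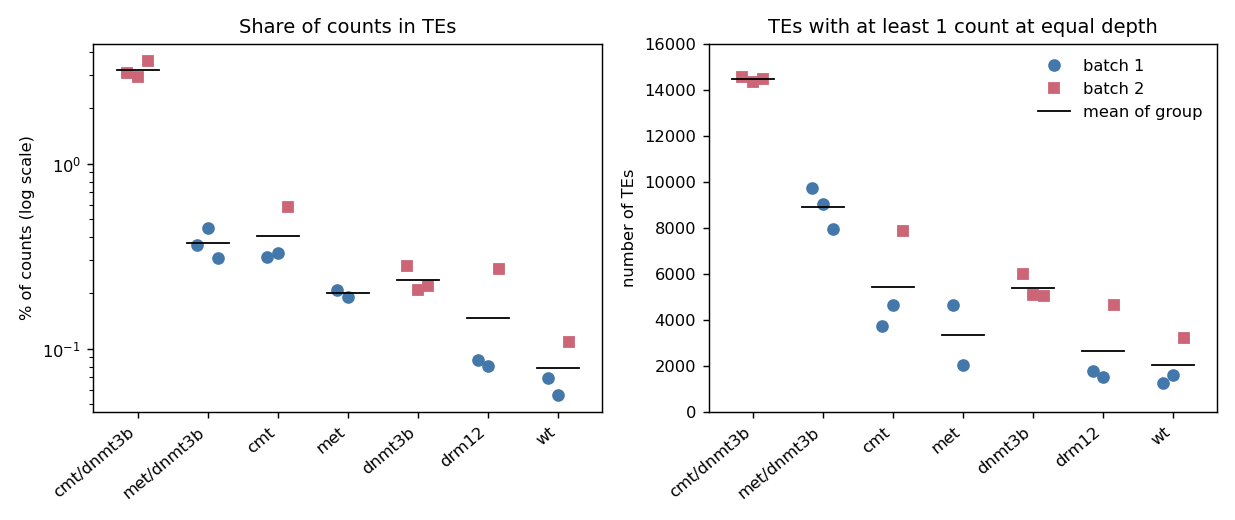
Left, share of counts in TEs in each library by genotype (log axis, % of counts). Right, number of TEs with at least 1 count after each library was thinned to 14236575 counts. Symbols show the batch and bars the mean of the group; the cmt/dnmt3b libraries, at 2.94% or more and 14360 TEs or more, lie above every other library in both.

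The excess was spread over many TEs. With every library thinned to the smallest total, 14236575 counts, at least 1 count was found for 14567, 14360 and 14482 TEs in cmt/dnmt3b, against 9732, 9049 and 7957 in met/dnmt3b. The means were 14470 ± 104 in cmt/dnmt3b and 8913 ± 895 in met/dnmt3b (SD, n = 3 each), a ratio of 1.62 (two-sided exact permutation p = 0.1, the smallest possible; adjusted p = 0.15). The number of genes detected at this depth was 22306 to 22409 in cmt/dnmt3b, against 22379 to 22549 in met/dnmt3b, ranges that overlapped (exact permutation p = 0.3). The 10 most abundant TEs took up 8.10 to 12.9% of the TE counts in cmt/dnmt3b, against 12.3 to 13.1% in met/dnmt3b, and without them the ratio of the TE shares was 8.73.

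The TEs that only 1 of the double mutants transcribed at this depth were mostly those of cmt/dnmt3b. There were 2214 TEs with a count in all 3 cmt/dnmt3b libraries and none in any met/dnmt3b library, and 144 TEs with the reverse. Another 4447 TEs had a count in all 6 libraries. Of the 2214, 1290 had no count in any cmt library, 1915 none in any dnmt3b library and 2141 none in any wt library, and 1065 had none in any of the other 14 libraries. Of the 144, 53 had a count in both met libraries and 107 had none in any cmt library, and 30 had none in any of the other 14 libraries. A count of 0 in a thinned library allows up to 3 counts, so these are limits on detection. Both sets were chosen as absent from 1 double mutant. The shares absent from the other genotypes among all TEs so absent were not computed, so these counts have no background.

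Levels gave the same order. A mean of at least 1 CPM was reached by 4325 TEs in cmt/dnmt3b, against 561 in met/dnmt3b, with 370 in cmt, 196 in met, 358 in dnmt3b, 172 in drm12 and 108 in wt. A mean of at least 10 CPM was reached by 426 TEs in cmt/dnmt3b, against 39 in met/dnmt3b, and by 43, 24, 19, 16 and 8 in cmt, met, dnmt3b, drm12 and wt. On means of at least 2 CPM in one double mutant and under 0.5 CPM in the other, 1772 TEs were on in cmt/dnmt3b and off in met/dnmt3b, and 15 were the reverse. Of the 1772, 109 reached 2 CPM in cmt, 1 in dnmt3b, 2 in met and 0 in wt. Of the 15, 14 reached 2 CPM in met and 0 in cmt, dnmt3b, drm12 or wt. The met libraries had no part in choosing them. Shares over all TEs off in 1 double mutant were not computed, so the counts in the other genotypes have no background.

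In the fit with a batch term, 439 TEs were higher in cmt/dnmt3b than in met/dnmt3b (6.65% of the TEs tested) and 160 were lower (2.42%). This balance of calls turned without cmt replicate 3, the batch 2 library of cmt. Then 69 TEs were higher, 52 of them among the 439, and 240 were lower. In that run a TE with no count in wt or drm12 had nothing to set its batch term and could not be called. The median log2 fold change of the TEs tested there was 1.65. In plain CPM, without a batch term, the libraries of the double mutants did not overlap for 5585 TEs higher in cmt/dnmt3b (84.6% of those tested) and 132 lower (2.0%). The filter can admit a TE for its level in 1 double mutant alone, so these shares are not those of all TEs. The batch term of the TEs had a median of 2.38 on the log2 scale, against 0.02 for genes. No count in any wt or drm12 library was found for 2656 of the TEs tested (40.2%), so that only cmt could set it there. Where cmt had no count either, nothing set it and no call could be made. The median log2 fold change of the TEs tested was 1.03 with the batch term, and the median plain difference was 1.42 on the log2(CPM + 0.5) scale.

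The TEs called higher stood out in plain levels too. Their summed level was 4737 to 6707 CPM in the cmt/dnmt3b libraries, against 302.1 to 432.8 CPM in the met/dnmt3b libraries. In the other groups it was 2012 to 2274 CPM in cmt, 314.1 to 641.1 in met, 81.7 to 118.2 in dnmt3b, 55.7 to 92.3 in drm12 and 24.3 to 49.4 in wt. Of the 439, 434 had no overlap between the double mutants in the direction of the call, and for 430 (97.9%) the plain difference was larger than the batch difference seen in wt, drm12 or cmt. Such a difference, higher in cmt/dnmt3b, was found for 79.2% of all TEs tested. Means under 0.5 CPM were found for 399 of the 439 in met (90.9%, against 95.1% of all TEs tested), 412 in dnmt3b (93.8%, against 85.5%) and 419 in wt (95.4%, against 97.0%), so low levels there were common to the TEs tested. In cmt 177 were under 0.5 CPM (40.3%, against 88.0%). The level in cmt is not independent of the call, because cmt alone set the batch term of TEs with no count in wt and drm12.

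The 160 TEs called lower mostly did not differ in that direction in plain levels. For 97 of them the plain difference had the opposite sign, and for 37 every cmt/dnmt3b library lay above every met/dnmt3b library. In 20 of them every cmt/dnmt3b library lay below every met/dnmt3b library, and in 4 (2.50%) the plain difference was larger than the batch differences, as in 1.7% of all TEs tested. Over the 160, the median batch difference, batch 2 minus batch 1, was 0.66 in wt, 1.79 in drm12 and 1.11 in cmt on the log2(CPM + 0.5) scale. Their summed level was 203.7 to 217.6 CPM in cmt/dnmt3b and 158.0 to 283.5 CPM in met/dnmt3b, ranges that overlapped. The call of most of these TEs as lower thus rested on the batch term and not on a lower level in the libraries.

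**Figure D2:**
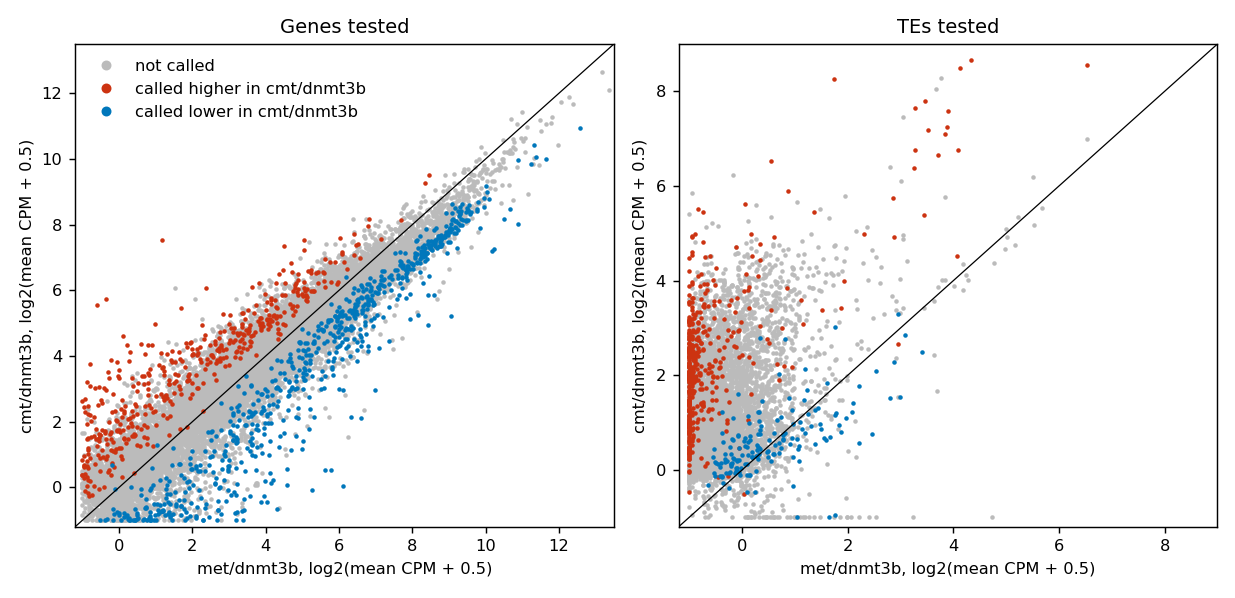
Mean level of each tested gene (left) and TE (right) in cmt/dnmt3b (vertical) against met/dnmt3b (horizontal), as log2(mean CPM + 0.5), with the line of equal levels. Red points were called higher and blue points lower in cmt/dnmt3b; most TEs lie above the line, and 97 of the 160 blue TEs had a plain difference with the sign opposite to their call.

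Single TEs show the 2 patterns at their clearest. TE 869596 had 10.2, 10.98 and 12.4 CPM in the cmt/dnmt3b libraries, against 0 counts in the 3 met/dnmt3b libraries. It had 0.184, 0.239 and 0 CPM in cmt, and 0 counts in met, dnmt3b, drm12 and wt. It was at least 178.6-fold higher in cmt/dnmt3b, taking 3 counts over the met/dnmt3b group as the floor (edgeR log2 fold change 14.32 ± 1.53 SE, adjusted p = 0.00127). TE 976498 had 13.97, 14.5 and 15.5 CPM in cmt/dnmt3b, against 0, 0 and 0.0644 CPM in met/dnmt3b. The met/dnmt3b group held 1 count of it, a ratio of 703.1 with a 95% counting interval of 125.9 to 27798 (edgeR adjusted p = 0.00073). Outside cmt/dnmt3b, neither passed 0.299 CPM in any of the other libraries.

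The first 2 TEs in the ranking of falls were on in met as well. The next 2, TEs 753555 and 959199, had means of 2.39 and 2.43 CPM in cmt/dnmt3b, against 6.45 and 7.41 CPM in met/dnmt3b. In met replicate 2 they were near 0, at 0.0527 and 0.105 CPM. TE 887035 had 0 counts in the 3 cmt/dnmt3b libraries, against 2.68, 3.36 and 1.80 CPM in met/dnmt3b. It had 3.18 and 3.16 CPM in met, 0, 0 and 0.430 CPM in cmt, and 0 counts in dnmt3b, drm12 and wt. It was at least 58.2-fold lower in cmt/dnmt3b (edgeR log2 fold change -12.89 ± 1.46 SE, adjusted p = 0.00171). TE 929990 had 0, 0 and 0.0437 CPM in cmt/dnmt3b, against 2.75, 3.94 and 2.0 CPM in met/dnmt3b. It had 2.40 and 1.84 CPM in met. The cmt/dnmt3b group held 1 count of it, a ratio of met/dnmt3b to cmt/dnmt3b of 195.1 (95% counting interval 34.5 to 7758, edgeR adjusted p = 0.0189). TEs 869596, 976498, 887035 and 929990 had no count in wt or drm12, so cmt alone set their batch term. Their calls were lost without cmt replicate 3 and with wt or drm12 alone setting batch. In those runs no genotype present in both batches had a count of them, so no call could be made whatever their level. The log2 fold changes without cmt replicate 3 were still 10.64 for 869596, 9.09 for 976498, -8.48 for 887035 and -6.96 for 929990. The call of 929990 was lost also with the replicate number as a block (edgeR adjusted p = 0.0678).

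Among genes, 442 were higher in cmt/dnmt3b than in met/dnmt3b (2.19% of the genes tested) and 714 were lower (3.54%). The direction of this balance depended on the scaling. Over all genes tested the median log2 fold change was -0.17 with normalisation factors from genes and TEs together, and 0.01 with factors from genes alone, which gave 648 higher and 414 lower. Rises made up 38.2% of the gene calls in the first case, and falls smaller than the shift of the median gene are not falls relative to it. With a change of 2-fold or more also required, 412 genes were higher and 596 lower. In plain CPM, 427 of the 442 and 694 of the 714 had no overlap between the double mutants in the direction of the call, against 20.9% of all genes tested higher and 36.7% lower without overlap. The plain difference was larger than the batch difference of wt, drm12 and cmt for 364 of the genes called higher (82.4%) and 590 of those called lower (82.6%), against 11.9% and 18.5% of all genes tested.

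Part of the genes called higher were near silence in every genotype but cmt/dnmt3b and cmt, where few were, and most genes called lower were expressed in every genotype. The median level of the genes called higher was 13.8 CPM in cmt/dnmt3b and 3.13 in met/dnmt3b, with 7.83 in cmt, 3.34 in met, 3.23 in dnmt3b, 3.78 in drm12 and 3.45 in wt. Of these 442 genes, 105 (23.8%) had a mean under 0.5 CPM in met/dnmt3b and 113 in wt, where the share over all genes tested was 6.46% in met/dnmt3b and 9.31% in wt. In cmt 45 of them were under 0.5 CPM (10.2%, against 8.09% of all). The level in cmt is not independent of the calls, because cmt helped set the batch term. It did so alone for the 53 genes tested (0.26%) with no count in wt or drm12. Over the genes called higher, the median batch difference was -0.12 in wt, -0.07 in drm12 and -0.30 in cmt on the log2(CPM + 0.5) scale. The median level of the genes called lower was 16.9 CPM in cmt/dnmt3b and 45.6 in met/dnmt3b, with 25.8 in cmt, 35.8 in met, 38.6 in dnmt3b, 33.6 in drm12 and 33.4 in wt. Of these 714 genes, 17.2% were under 0.5 CPM in cmt/dnmt3b (against 5.72% of all genes tested) and 15.4% in cmt (against 8.09%). Their median in wt lay between those of the double mutants, and that of cmt lay nearest to cmt/dnmt3b.

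On the same limits as for TEs, 109 genes were on (at least 2 CPM) in cmt/dnmt3b and off (under 0.5 CPM) in met/dnmt3b, and 136 were the reverse. Of the 109, 83 were under 0.5 CPM in wt, 31 reached 2 CPM in cmt, 3 in dnmt3b and 0 in met. Of the 136, 52 reached 2 CPM in wt, 49 in met, 39 in dnmt3b and 12 in cmt. Of the 136, 45 were under 0.5 CPM in wt. Both sets were chosen as low in 1 double mutant, and the share off in wt among all genes that low was not computed. These counts thus describe the 2 sets and have no background.

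The named genes were each on in 1 double mutant and off in the other by these limits, so they do not stand for all genes called. Pp3c14_740 had 6.28, 5.07 and 5.68 CPM in cmt/dnmt3b, against 0 counts in the 3 met/dnmt3b libraries. It had 0.429, 0.658 and 0.301 CPM in cmt and 0 counts in the other genotypes, and was at least 91.9-fold higher in cmt/dnmt3b (edgeR log2 fold change 10.44 ± 1.33 SE, adjusted p = 0.0026). Pp3c11_13750 had 38.8, 47.0 and 52.9 CPM in cmt/dnmt3b, against 0.149, 0.315 and 0 CPM in met/dnmt3b (edgeR log2 fold change 9.77 ± 0.86 SE, adjusted p = 5.64e-05). It stood at 66.7, 77.4 and 21.9 CPM in cmt, so it was already high with CMT lost alone, and it had at most 1 count in any library of the other genotypes. Both calls were lost without cmt replicate 3 and with wt or drm12 alone setting batch. Neither gene had a count in wt or drm12, so in those runs nothing set their batch term and no call could be made. The log2 fold changes without cmt replicate 3 were still 9.67 for Pp3c14_740 and 8.14 for Pp3c11_13750.

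Among the genes that fell, Pp3c3_19630 had 0 counts in cmt/dnmt3b, against 13.8, 6.73 and 9.40 CPM in met/dnmt3b. It had 0, 0 and 0.646 CPM in cmt, 5.45 and 3.79 in met, 3.42, 4.99 and 5.65 in dnmt3b, 3.75, 6.24 and 3.67 in drm12 and 2.15, 5.10 and 3.55 in wt. The gene was thus expressed in every genotype with CMT and absent or nearly so in both genotypes without it. It was at least 209.2-fold lower in cmt/dnmt3b (edgeR log2 fold change -10.96 ± 1.33 SE, adjusted p = 0.000291), and the call held in every alternative run. Pp3c21_6170 had 0 counts in cmt/dnmt3b and in cmt, against 11.1, 11.4 and 3.16 CPM in met/dnmt3b, and between 0 and 2.89 CPM in the other libraries. It was at least 188.7-fold lower in cmt/dnmt3b (edgeR adjusted p = 0.0148). That call was lost without drm12 replicate 3 (log2 fold change -4.80) and with wt alone setting batch (-3.40). It was lost also with cmt alone (-10.33), where the gene had no count in cmt to set the batch term, so no call could be made. Fitted fold changes against a group at 0 depend on the small count that the fit adds. Fitted fold changes also moved with the batch term. Without it the log2 fold change was 10.62 against 14.32 for TE 869596, -8.53 against -12.89 for TE 887035 and 8.08 against 9.77 for Pp3c11_13750. Pp3c3_19630 moved less, at -10.46 against -10.96. The bounds do not depend on the added count, but they come from pooled counts without a batch term and cover counting error only.

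**Figure D3:**
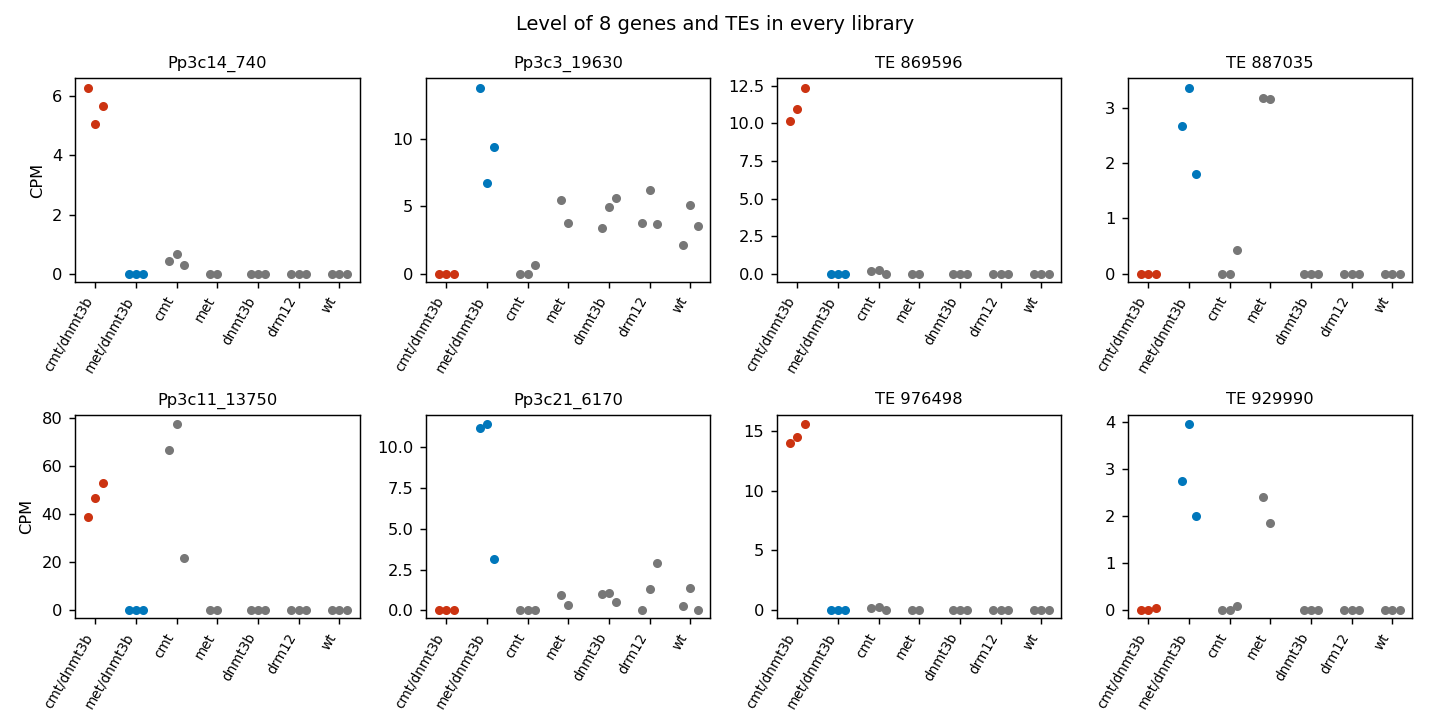
Level in CPM of 4 genes and 4 TEs in each of the 20 libraries, by genotype; each point is 1 library, with cmt/dnmt3b in red, met/dnmt3b in blue and the other genotypes in grey. Pp3c14_740, Pp3c11_13750 and TEs 869596 and 976498 are higher in cmt/dnmt3b, and the others are lower there; TEs 887035 and 929990 are on in met as well.

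The genes called higher were concentrated on chromosomes 16 and 10. Chromosome 16 held 115 of the genes called higher (26.0%) and 5 of those called lower, with 4.09% of the genes tested. Chromosome 10 held 60 of those called higher (13.6%) and 7 of those called lower, with 3.84% of the genes tested. For genes averaging 2 CPM or more, levels were taken on the log2(CPM + 0.5) scale relative to the gene's median over the 20 libraries and then to the library's median gene. By this measure chromosome 16 had a median of 0.72, 0.73 and 0.75 in cmt/dnmt3b, against -0.10, -0.10 and -0.06 in met/dnmt3b. For chromosome 10 these medians were 0.50, 0.38 and 0.51 in cmt/dnmt3b, against -0.07, -0.05 and -0.07 in met/dnmt3b. In the other 14 libraries the medians lay between -0.11 and -0.05 for chromosome 16 and between -0.07 and -0.03 for chromosome 10, with both batches among them. The shift was of the whole chromosome. Over 4 successive parts of chromosome 16 the median log2 fold change was 0.69, 0.78, 0.67 and 0.65, and 87.7% of its 824 genes tested had a positive log2 fold change, against 35.8% of the 17948 genes outside chromosomes 16, 10 and 19.

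Chromosome 19 stood out in the other direction, and this went with 1 wt library. Its genes had a median log2 fold change of -0.61, and 46 were called lower and 7 higher. Their median log2 level was -0.05, -0.07 and -0.06 in the cmt/dnmt3b libraries, against 0.05, 0.01 and 0.01 in met/dnmt3b, but 0.95 in wt replicate 3, which helps set the batch term. Without that library 12 genes of chromosome 19 were called lower. Outside chromosomes 16, 10 and 19, 260 genes were called higher (1.45% of those tested) and 656 lower (3.65%), with a median log2 fold change of -0.20. Chromosome numbers were read from the identifiers, and copy number was not measured.

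**Figure D4:**
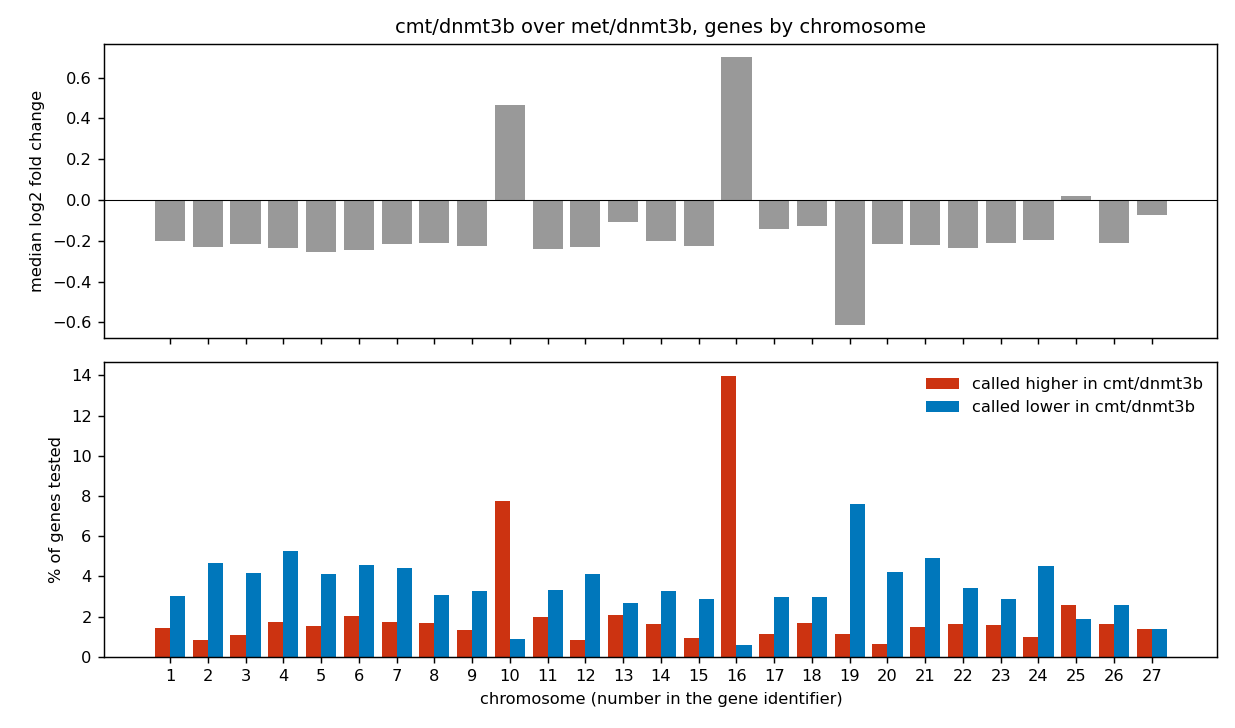
Genes by chromosome, numbered as in the identifiers. Above, the median log2 fold change of cmt/dnmt3b over met/dnmt3b; below, the percentage of the genes tested that were called higher (red) or lower (blue) in cmt/dnmt3b. Chromosomes 16 (median 0.70) and 10 (0.46) are raised and chromosome 19 (-0.61) is lowered, while the others lie between -0.26 and 0.02.

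The size of the lists differed with the libraries that set the batch term. A fit with 1 genotype for this held that genotype and the double mutants only, so the features tested and the residual degrees of freedom changed with it. It tested 19290 genes and 5389 TEs with wt, 19440 and 5590 with drm12, and 19427 and 5616 with cmt. With no batch term, 1833 genes were higher and 3515 lower, and 4293 TEs were higher and 66 lower. With the batch term from wt alone, 572 genes were higher and 976 lower, and 47 TEs were higher and 38 lower. With drm12 alone, 1373 genes were higher and 2743 lower, and with cmt alone 2541 were higher and 2998 lower. For TEs the balance turned with drm12 alone, at 112 higher and 539 lower, while with cmt alone 686 were higher and 116 lower. Of the 19211 genes tested in all 3 fits, 130 were called higher by each gauge, 45 of them on chromosome 16 or 10. By each gauge 183 genes were called lower, 3 of them on those chromosomes. Chromosome 16 held 4.09% and chromosome 10 held 3.84% of the genes tested over the 20 libraries. Among the 5386 TEs tested in all 3 fits, 18 were called higher and 16 lower by each gauge. The excess of rises among the TE calls was thus not seen there. A TE with no count in the genotype that set batch could not be called in that fit. In sign alone, 2545 of the 5386 TEs tested in all 3 fits (47.3%) were higher by each gauge and 902 (16.7%) lower. With wt, drm12 and cmt together setting batch, 421 of these TEs were called higher, and 420 kept that sign by each gauge. Another 129 were called lower, and 126 of those kept their sign too, so a kept sign does not set the rises apart. Where no count set batch, the sign carries no adjustment for it. The 3 fits share the 6 double mutant libraries. Across 16796 genes averaging 2 CPM or more, the plain difference of the double mutants had a Pearson r of 0.42 with the batch difference of wt, 0.18 with that of drm12 and 0.16 with that of cmt, a description over genes, which are not independent replicates.

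**Figure D5:**
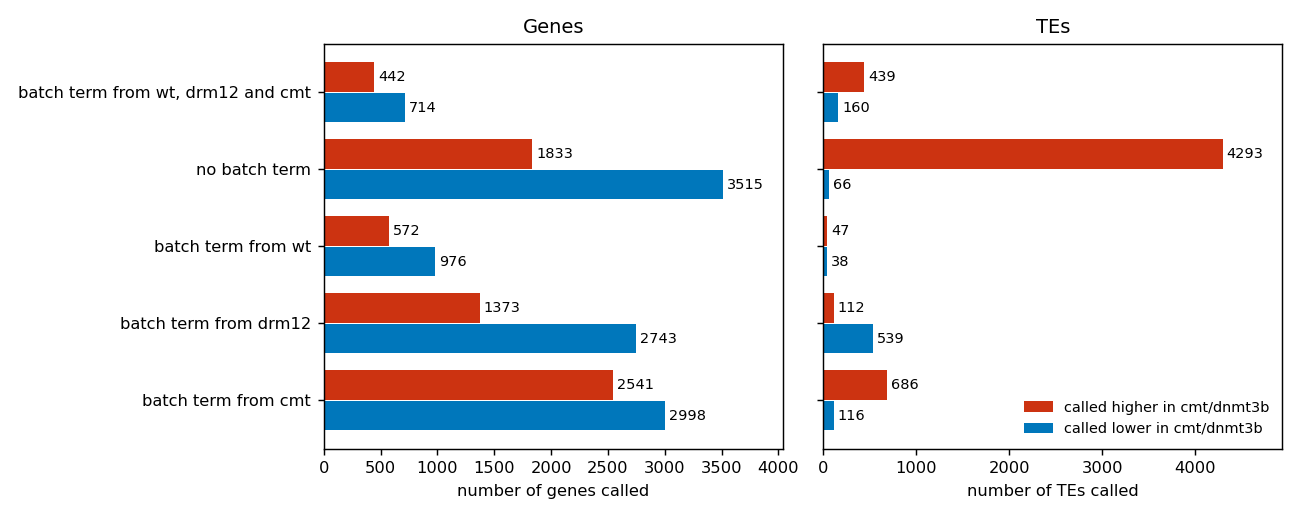
Number of genes (left) and TEs (right) called higher (red) or lower (blue) in cmt/dnmt3b than in met/dnmt3b, by which libraries set the batch term; a fit with 1 genotype held only that genotype and the double mutants. TEs called higher run from 47 with wt alone to 4293 with no batch term, and with drm12 alone more TEs were called lower (539) than higher (112).

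The single mutants gave a reading in libraries that the double mutants do not share, within batch 1. For this, genes and TEs were chosen on the 6 double mutant libraries alone, without a batch term, as those at least 2-fold apart with no overlap, and cmt replicates 1 and 2 were set against both met libraries. Of the 1048 genes higher in cmt/dnmt3b and outside chromosomes 16 and 10, both cmt libraries lay above both met libraries for 512 (48.9%), against 28.4% of all genes tested there. They lay below both met libraries for 121 (11.5%, against 29.3% of all), and the median log2 difference, cmt minus met, was 0.31. Of the 1643 genes lower in cmt/dnmt3b there, both cmt libraries lay below both met libraries for 599 (36.5%), against 29.3% of all. They lay above for 390 (23.7%, against 28.4% of all), and the median log2 difference was -0.11, so the single mutants differed little over these genes. The 77 TEs lower in cmt/dnmt3b had both cmt libraries below both met libraries in 45 cases (58.4%), against 4.27% of all TEs tested. Most of all TEs tested were at or near 0 in both single mutants, so that share is no matched background for the 77. Among the 4567 TEs higher in cmt/dnmt3b, both cmt libraries lay above both met libraries in 692 cases (15.2%) and below both in 114 (2.50%). These TEs make up most of the 6602 tested, so the shares over all TEs (13.9% above, 4.27% below) are no separate background for them. Most TEs tested were at or near 0 in both single mutants, with 88.0% under 0.5 CPM in cmt and 95.1% in met, and could hardly separate there.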

How the data were processed

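Polyadenylated RNA of 20 protonema libraries was sequenced, per the labels' protocols. The authors deposited 1 table of raw counts per gene and TE for all libraries. The tools listed, per the submitters' processing notes, are STAR 2.7.0f, cutadapt 1.15 and Trim Galore 0.6.0, without their roles. The sources used here do not give the counting step, strand setting, genome build or treatment of reads from several places, so levels of single TEs, and of genes with close copies or overlaps, are uncertain. Groups and replicates came from titles, batches from descriptions.

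The counts were fitted with edgeR 4.0.16 (R 4.3.3), with genotype and batch as terms over 20 libraries, TMM factors over genes and TEs, and a filter by group (minimum count 10, total 15). Alternatives were DESeq2 1.42.0, no batch term or one from a single genotype, other factors and filters, a replicate block and each library of the double mutants, wt, drm12 and cmt left out in turn; those added after seeing the data are named as such. CPM used the same factors. Shares were compared by exact permutation (SciPy 1.17.1). Counting intervals are 95% exact, and a count of 0 allows up to 3 counts; both cover counting error only. Replicate pairs differed beyond sampling noise (chi-square per degree of freedom 7.73 to 22.0).

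Named features had an adjusted p under 0.05, a change of 2-fold or more, no overlap of the double mutants and a mean of at least 2 CPM. They were ranked by fold change, which left 348 genes higher, 517 lower, 338 TEs higher and 15 lower. The rule also took the 8 genes and 4 TEs at each end of the ranking, the 4 genes of chromosome 16 with the highest level and the 4 genes and 4 TEs with the smallest p in each direction. Only the first 2 of each ranking were printed in full, because no identifier could be paired with a gene name. For the same reason lists by product name were not used. The comparison and its lists were chosen with earlier results of these data known.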

Additional observations from a re-analysis of the deposited data

How the results depend on the processing

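Against 1156 genes and 599 TEs called, the counts were 5348 genes and 4359 TEs with no batch term, 9966 and 4852 in the 6 double mutant libraries alone, 4116 genes with the batch term from drm12 alone, 5539 genes from cmt alone, 85 TEs from wt alone, and 1854 genes with DESeq2. Without the drm12 libraries, chosen after seeing the data, there were 2915 genes. Leaving out 1 library gave 521 (without met/dnmt3b replicate 1) to 2489 genes (without drm12 replicate 3) and 309 (without cmt replicate 3) to 647 TEs. Genes were also under 1156 by more than 1.5 times without cmt/dnmt3b replicates 1, 2 and 3 (570, 656 and 527), met/dnmt3b replicate 3 (630) and cmt replicate 1 (753), as were TEs without the cmt/dnmt3b replicates in turn (375, 393 and 362) and met/dnmt3b replicate 1 (398). Without cmt replicate 3, 69 TEs were higher and 240 lower, and TEs with no count in wt or drm12 could not be called there. The balance of gene calls turned to more rises with factors from genes alone, with RLE factors (617 higher, 412 lower), with DESeq2 (1028 and 826), with the stricter filter (587 and 461) and without any 1 cmt/dnmt3b library, among others. The ratio of TE shares was 7.87 to 9.54 with 1 library left out, and 4.93, 2.67 and 4.66 relative to wt, drm12 and cmt of the same batch; the last 2 gauges were chosen after seeing the data.

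The median log2 fold change of chromosome 16 minus the chromosomes other than 16, 10 and 19 was 0.90, ran from 0.89 to 0.93 with 1 library left out, and was 0.94 with the replicate number as a block. For chromosome 10 it was 0.67, ran from 0.64 to 0.72, and was 0.75 with cmt setting batch. For chromosome 19 it was -0.41, ran from -0.57 to -0.0698 (without wt replicate 3), and was -0.0668 with no batch term, -0.0742 in the 6 libraries, -1.02, -0.0298 and -0.0027 with wt, drm12 and cmt setting batch, -0.38 with no filter and -0.53 without the drm12 libraries. For the chromosomes other than these 3 it was -0.20 (-0.21 to -0.0288, the second without drm12 replicate 3), -0.197 with no batch term, -0.18 in the 6 libraries, -0.15, -0.17 and -0.0840 with wt, drm12 and cmt, -0.0271 with factors from genes alone, -0.0361 with RLE factors, -0.0351 with DESeq2, -0.0737 with no filter, -0.0832 with the stricter filter, -0.21 with the block and -0.0293 without drm12. The cause of these moves was not tested.

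Blocking on replicate number left 146 genes higher and 190 lower (336 in all), and 189 TEs higher and 19 lower (208 in all). The numbers were not taken to pair the libraries: deviations of same-numbered libraries of the double mutants had correlations of -0.03, -0.05 and 0.08 over genes.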

Other observations

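Genes differed by their level over the 20 libraries. Among the 5038 tested genes of lowest level, with means of 0.0578 to 5.08 CPM, 207 genes were higher in cmt/dnmt3b and 165 lower (4.11% and 3.28%), with a median log2 fold change of 0.16. Among the 5037 of highest level, with means from 44.0 CPM, 48 were higher and 328 lower (0.953% and 6.51%), with a median of -0.39. Summed over the genes tested, the level was 742832 to 804072 CPM in the cmt/dnmt3b libraries, against 971643 to 1112670 CPM in met/dnmt3b, on factors from genes and TEs together.

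The 8 genes with the largest rises by the naming rule had log2 fold changes from 7.21 to 10.44 and lay on 7 chromosomes, with none on chromosome 16 or 10. The 8 genes with the largest falls had fitted log2 fold changes from -10.96 to -7.53 and plain differences from -4.33 to -2.64. They lay on 6 chromosomes, with 3 of the genes on chromosome 3 and 2 on chromosomes 16 and 10.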
